A study of Danio rerio with 4 samples.

Results

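Retinoic acid is the active form of vitamin A, and the genes described here make it, hold it back or destroy it in the zebrafish (Danio rerio) fin. They were found by gene ID or zebrafish gene name. The gene list held 10 entries, and 9 gene IDs of 7 symbols matched it among the 32434 gene IDs counted: STRA6 (ENSDARG00000051874), RDH10 (ENSDARG00000012369 and ENSDARG00000058730), DHRS3 (ENSDARG00000044803 and ENSDARG00000044982), ALDH1A2 (ENSDARG00000053493), CYP26A1 (ENSDARG00000033999), CYP26B1 (ENSDARG00000077121) and CYP26C1 (ENSDARG00000056029). The gene rbp4 was not analysed here. Symbols are printed as the symbol table gives them, and the RDH10 and DHRS3 copies are told apart by ID, since the table gives both copies of a pair the same symbol. RNA came from whole fins of wild type fish, strain EK. One group was 2 pools of 10 fins collected 4 days after amputation to 50% of the original length, and the other was 2 pools of 10 uninjured fins, with no treatment. Neither the age of the fish nor the independence of the pools is stated in the labels, so that p-values reflect only pool-to-pool spread, part of which may be technical.

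Retinol travels in the blood on retinol-binding protein and can enter cells through the receptor Stra6. Rdh10 oxidises retinol to retinaldehyde, Dhrs3 reduces retinaldehyde back to retinol, and Aldh1a2 oxidises retinaldehyde irreversibly to retinoic acid, which binds nuclear receptors and switches on target genes. Cyp26 enzymes hydroxylate retinoic acid and so clear it. In the regenerating zebrafish fin, aldh1a2 is known as a gene of the blastema, the mass of dividing mesenchymal cells that rebuilds the fin, and blastema formation is known to need retinoic acid.

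The 4 libraries held 34290386 to 48247042 counts. Levels are given as raw counts and as CPM, counts relative to the library total after scaling by trimmed mean of M values (TMM), and are compared between groups and not between genes, because transcript lengths were not used. All 9 genes passed the filter on low counts, and their lowest count in any library was 41. In regenerating fins 3 of the 9 were higher, 3 were lower and 3 missed the threshold of 0.05 on the p-value of edgeR's quasi-likelihood test after Benjamini-Hochberg adjustment over all 25594 genes tested. Of all genes tested, 29.5% were higher and 30.1% lower, so the shares among these genes, 33.3% in each direction, lay near the background. In CPM the pools of the groups did not overlap for 8 of the 9 genes, where the same held for 81.3% of all genes tested.

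**Figure D1:**
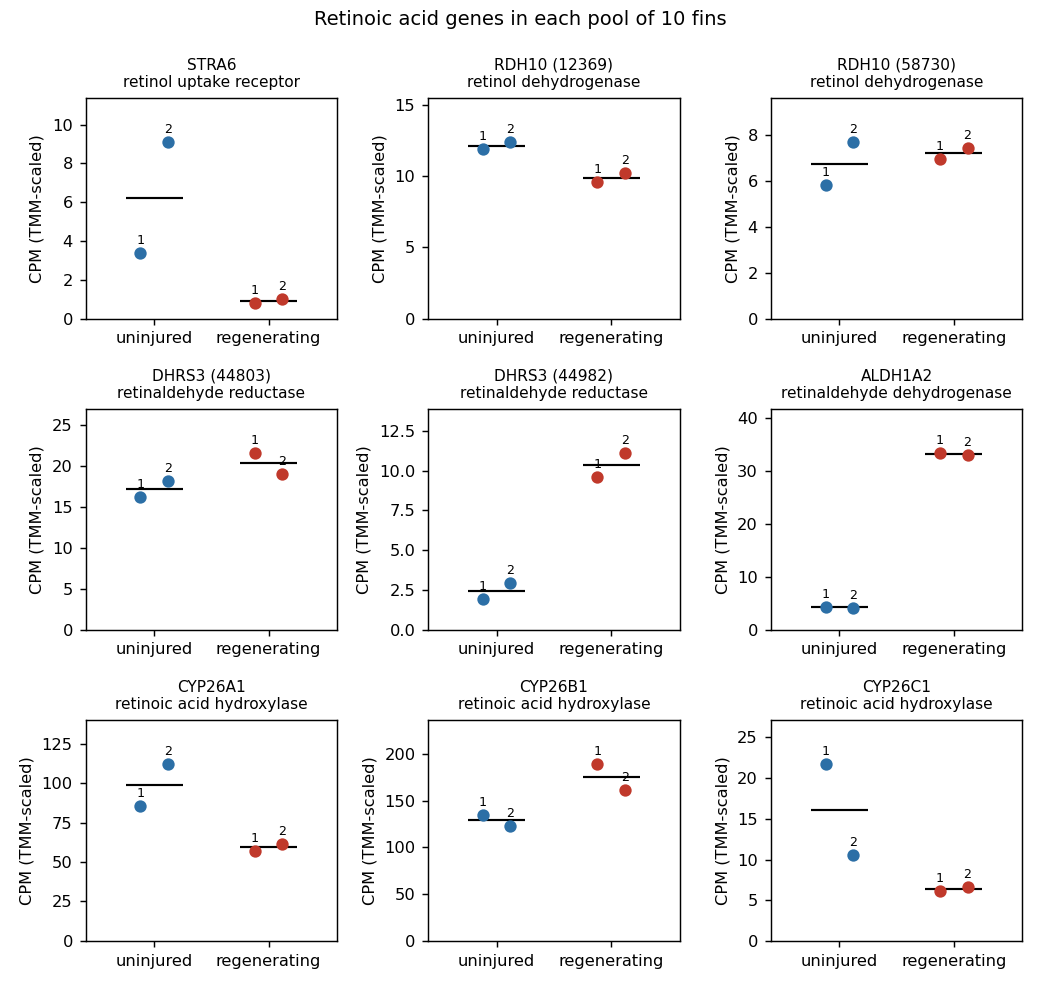
Level of each retinoic acid gene in each library, in TMM-scaled CPM, with its own vertical axis from 0. Points are pools, numbered by replicate, and lines are group means; ALDH1A2 stands near 33 CPM in both regenerating pools and near 4 CPM in both uninjured pools, and the uninjured pools of STRA6 and CYP26C1 lie far apart.

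ALDH1A2, which carries out the last step of retinoic acid synthesis, had the largest increase of the 9. It had 1666 and 1756 counts in the regenerating pools and 167 and 140 in the uninjured pools, which is 33.3 and 32.9 CPM against 4.38 and 4.11 CPM. Both regenerating pools were high, both uninjured pools were low, and within each group the pools were close together. The mean went from 4.25 ± 0.193 to 33.1 ± 0.269 CPM (SD, n = 2), a 7.79-fold increase with a log2 fold change of 2.96 ± 0.13 (SE; edgeR quasi-likelihood, adjusted p = 2.36e-06). Ordered by log2 fold change, the gene ranked 455 from the top among 25594, and 2.54% of genes changed by more in either direction. In bulk tissue, more cells with a transcript and more transcript in each cell cannot be told apart, and this holds for every change below. With 1 library left out at a time, its log2 fold change ranged from 2.95 to 3.01.

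STRA6, the retinol receptor, had the largest decrease. It had 41 and 54 counts in the regenerating pools, and 129 and 310 in the uninjured pools. In CPM these were 0.819 and 1.01 against 3.38 and 9.10. Both regenerating pools lay below both uninjured pools, but uninjured pool 2 was 2.69 times uninjured pool 1, and 1.41% of tested genes lay wider apart between those pools. The log2 fold change was -2.76 ± 0.44 (SE), which is 6.76-fold lower (edgeR quasi-likelihood, adjusted p = 0.000812). Without uninjured pool 2 it was -1.85, and without uninjured pool 1 it was -3.30. The gene was called lower in every fit with 1 library left out, with adjusted p of at most 0.0026, so 1 library moved the size of the decrease and not its call.

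RDH10, which makes retinaldehyde from retinol, did not pass the test at either gene ID. The copy ENSDARG00000012369 stood at 9.57 and 10.2 CPM in regenerating and 11.9 and 12.4 CPM in uninjured pools, from 424 to 546 counts. Its groups did not overlap, but its log2 fold change of -0.30 ± 0.13 (SE) missed the threshold (edgeR quasi-likelihood, adjusted p = 0.0815). It passed only when genes under 10 CPM were left out (log2 fold change -0.41, adjusted p = 0.0236). That filter moved the log2 fold changes of the genes it kept by a median of -0.11. The copy ENSDARG00000058730 stood at 6.97 and 7.42 CPM in regenerating and 5.82 and 7.69 CPM in uninjured pools. There the uninjured pools lay on both sides of the regenerating pools, with a log2 fold change of 0.09 ± 0.17 (SE; adjusted p = 0.662), and the sign turned to -0.09 without uninjured pool 1.

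DHRS3, which turns retinaldehyde back into retinol, rose at the gene ID ENSDARG00000044982 and did not pass the test at ENSDARG00000044803. The copy ENSDARG00000044982 had 482 and 593 counts in the regenerating pools and 74 and 101 in the uninjured pools. In CPM it rose from 1.94 and 2.96 to 9.63 and 11.1, with no overlap. That is 4.24-fold, a log2 fold change of 2.08 ± 0.22 (SE; edgeR quasi-likelihood, adjusted p = 8.82e-05), with 7.29% of genes changing by more. The copy ENSDARG00000044803 stood at 21.6 and 19.1 CPM in regenerating and 16.2 and 18.2 CPM in uninjured pools, where the lower regenerating pool lay just above the higher uninjured pool. Its log2 fold change of 0.24 ± 0.13 (SE; adjusted p = 0.148) did not pass, and with scaling by total counts alone it was 0.44 (adjusted p = 0.0467). Within a library, the ratio of the first copy's counts to the second's does not depend on scaling. It was 0.445 and 0.583 in regenerating and 0.120 and 0.163 in uninjured pools, with no overlap, and 3.64 times higher in regenerating fins by the difference of mean log2 ratios. An exact permutation test of 2 against 2 pools, two-sided, gave p = 0.333, the smallest that this test can give.

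The Cyp26 genes, whose enzymes clear retinoic acid, moved in different directions. CYP26A1 had 2856 and 3281 counts in the regenerating and 3267 and 3825 in the uninjured pools, or 57.1 and 61.5 CPM against 85.7 and 112 CPM. Its regenerating pools lay below its uninjured pools, 1.67-fold lower on average, with a log2 fold change of -0.74 ± 0.15 (SE; edgeR quasi-likelihood, adjusted p = 0.00348). This call held in each fit that left out 1 library.

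CYP26C1 was lower as well, with a less certain size. It had 306 and 353 counts in the regenerating and 828 and 361 in the uninjured pools, which is 6.12 and 6.62 CPM against 21.7 and 10.6 CPM. Uninjured pool 1 was 2.05 times uninjured pool 2, the opposite order to STRA6, and 3.47% of tested genes lay wider apart there. The log2 fold change was -1.35 ± 0.29 (SE; edgeR quasi-likelihood, adjusted p = 0.00417), which is 2.54-fold lower. Without uninjured pool 1 it was -0.73, and without uninjured pool 2 it was -1.74, with the call kept both times.

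CYP26B1 was the member of the Cyp26 family that rose. It had 9474 and 8626 counts in the regenerating and 5152 and 4205 in the uninjured pools, or 189 and 162 CPM against 135 and 123 CPM. The groups did not overlap and the rise was 1.36-fold, a log2 fold change of 0.44 ± 0.14 (SE; edgeR quasi-likelihood, adjusted p = 0.0256). The call was lost without regenerating pool 1 (log2 fold change 0.33) and with the filter at 10 CPM (0.33; edgeR quasi-likelihood, adjusted p = 0.0541). That filter moved the log2 fold changes of all genes it kept by a median of -0.11. The count ratio of CYP26B1 to CYP26A1 within a library was 3.32 and 2.63 in regenerating and 1.58 and 1.1 in uninjured pools, which is 2.24 times higher in regenerating fins by the mean log2 ratios. Groups did not overlap in that ratio either (exact permutation p = 0.333, the smallest possible).

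**Figure D2:**
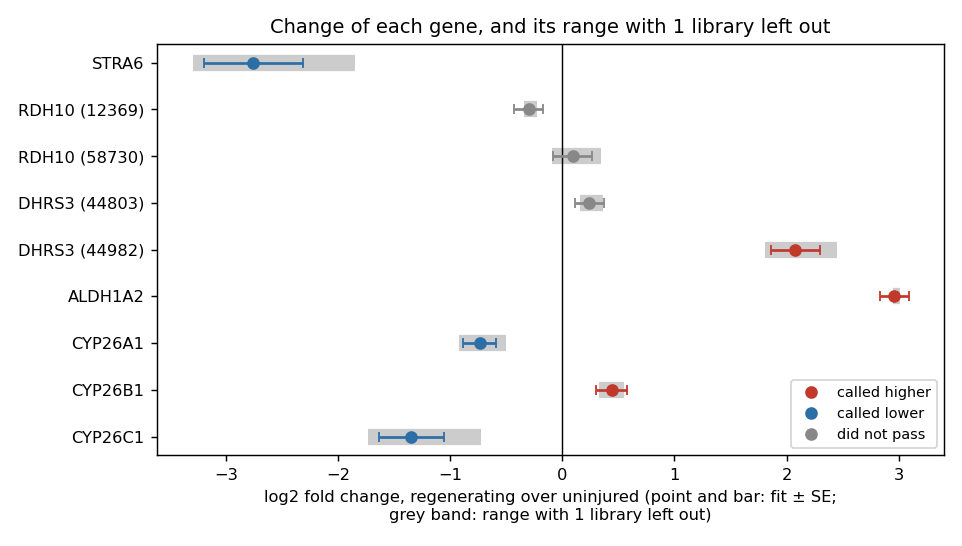
Log2 fold change of each gene, regenerating over uninjured fins, as points with bars of 1 SE, and grey bands for the range over the 4 fits with 1 library left out. The band is narrow for ALDH1A2 (2.95 to 3.01), wide for STRA6 (-3.30 to -1.85) and CYP26C1 (-1.74 to -0.73), and crosses 0 only for the RDH10 copy ENSDARG00000058730.

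With ALDH1A2 as the only synthesis gene, the ratio of Cyp26 to ALDH1A2 counts was lower in both regenerating pools than in both uninjured pools. ALDH1A3, another retinaldehyde dehydrogenase gene, named after its values were seen, did not enter the ratio. Its means were 29.9 CPM in regenerating and 23.5 CPM in uninjured fins, and its change did not pass the test. The summed Cyp26 count was 55.4 and 59.9 times the ALDH1A2 count in the uninjured pools and 7.58 and 6.98 times it in the regenerating pools. The size of this ratio in any library includes unknown transcript lengths and says nothing of the amounts of enzyme. The change of a ratio between single genes does not depend on length or library scaling. For a ratio with summed genes, the change does not depend on library scaling, but transcript lengths weight the genes in the sum. On the log2 scale the ratio of summed Cyp26 to ALDH1A2 counts went from a mean of 5.85 ± 0.08 to 2.86 ± 0.08 (SD, n = 2). The difference was -2.98, or 7.92-fold lower (exact permutation test, two-sided, p = 0.333, the smallest that 2 against 2 allows). Taken singly, the log2 ratio to ALDH1A2 changed by -3.69 for CYP26A1, -2.53 for CYP26B1 and -4.22 for CYP26C1. With the RDH10 counts added to those of ALDH1A2 the difference was smaller, -1.14. ALDH1A2 enters every one of these ratios, and its own log2 fold change of 2.96 was about as large as the difference of -2.98. The Cyp26 genes taken alone had log2 fold changes of -0.74 (CYP26A1), 0.44 (CYP26B1) and -1.35 (CYP26C1). CYP26B1 held 70.4% to 75.0% of the summed Cyp26 counts in regenerating and 50.1% to 55.7% in uninjured pools.

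**Figure D3:**
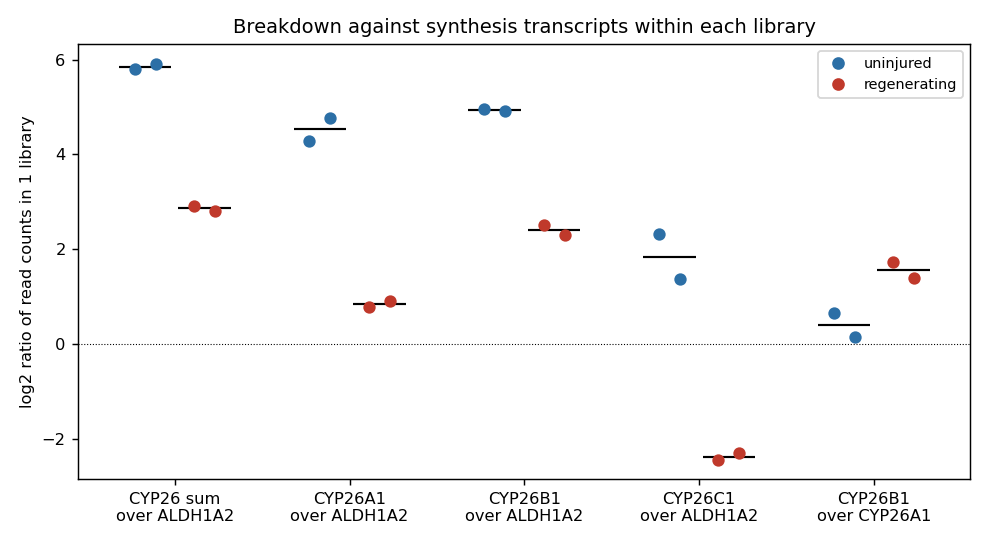
Log2 ratio of read counts within each library, for the summed and single Cyp26 genes over ALDH1A2 and for CYP26B1 over CYP26A1; points are pools and lines are group means. The ratios to ALDH1A2 are lower in both regenerating pools (sum 2.92 and 2.80 against 5.79 and 5.91), while CYP26B1 over CYP26A1 is higher in both.

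The groups also differed in markers of cell types, measured in the same libraries. Of 14 gene IDs for blastema and fin mesenchyme, 14 were higher in regenerating fins, and their summed level was 6140 to 6850 CPM against 176 to 189 CPM, or 3270 to 3580 against 158 to 170 CPM without and1, the highest of them. Of 8 epidermal markers 6 were lower and 1 higher, with sums of 25500 to 29000 against 63400 to 78300 CPM, or 4600 to 4690 against 8830 to 9190 CPM without krt5. Osteoblast markers were higher for 7 of 8 and lower for 1. COL10A1 made up most of their sum, which was 9560 to 11100 against 327 to 394 CPM with it and 343 to 375 against 130 to 147 CPM without it. Endothelial markers were higher for 5 of 5 (198 to 248 against 67.8 to 74.1 CPM). Pigment cell markers summed to 59.4 to 77.6 against 78.6 to 85.5 CPM, with 1 of 9 higher and 3 lower, and macrophage markers to 365 to 476 against 238 to 267 CPM, with 7 of 12 higher and 4 lower; without LGMN the macrophage sums overlapped, at 166 to 231 against 140 to 174 CPM. Liver markers, included because the liver is a main site of vitamin A storage, summed to 0.975 to 1.1 CPM in regenerating and 1.94 to 1.99 CPM in uninjured pools, with FGB higher and serpina1 lower among the 3 tested. Without serpina1 the liver sums overlapped, at 0.787 to 0.899 against 0.708 to 0.792 CPM, and apoa2 was at 0 in all 4 libraries. The part of cell type composition in the changes of ALDH1A2, STRA6, DHRS3 and the Cyp26 genes was not tested.

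**Figure D4:**
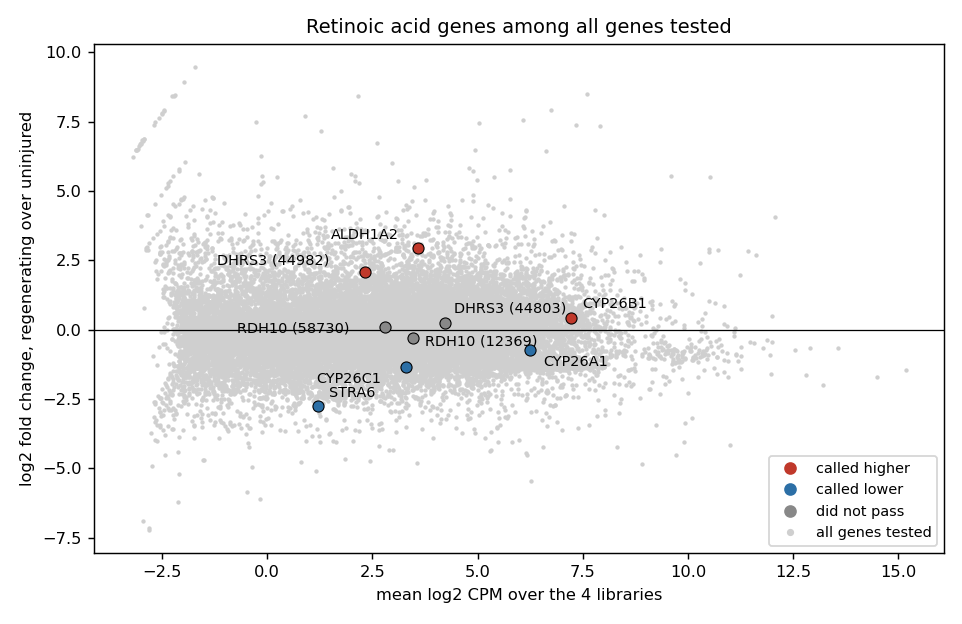
Log2 fold change, regenerating over uninjured fins, against mean log2 CPM over the 4 libraries for all 25594 genes tested (grey) and the 9 retinoic acid genes (coloured by call, with the last 5 digits of the ID where a symbol is shared). Of the 9, ALDH1A2 is highest (2.96) and STRA6 lowest (-2.76) on the vertical axis, and CYP26B1 has the highest mean log2 CPM of the 9, a scale that is not corrected for transcript length.

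Matched by exact name or by symbol without the paralog suffix, the wider set of vitamin A genes showed no common direction. Of 66 other tested gene IDs for storage, carriers, other oxidoreductases, receptors and targets, 16 were higher, 19 were lower and 31 did not pass, and 11 more were not tested for want of counts. That is 24.2% higher and 28.8% lower, where 29.5% and 30.1% of all genes tested were. The median log2 fold change was -0.02, the same as the median of all genes tested. The same shares of all genes are the background for the counts by role below and by marker list above. With scaling by total counts alone, which raised the log2 fold changes of all genes by a median of 0.21, the split moved. It was 22 higher to 11 lower in place of 16 to 19. Of the wider genes called, 66.7% were then higher, beside 61.8% of all genes called. With TMM these shares were 45.7% and 49.5%. The split also turned to more higher than lower without regenerating pool 1, where that group kept 1 pool. With exact names only, in the main fit, 5 were higher and 13 lower.

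Among storage and cleavage genes, 3 of 7 were higher and 3 were lower. Both BCO2 gene IDs and bco2l, genes of carotenoid-cleaving oxygenases, were the 3 that were lower. BCO2 (ENSDARG00000041715) stood at 7.15 and 5.68 CPM in regenerating and 47.8 and 47.2 CPM in uninjured pools, a log2 fold change of -2.89 ± 0.15 (SE; edgeR quasi-likelihood, adjusted p = 4.24e-06). BCO2 (ENSDARG00000055722) and bco2l, named after their values were seen, changed by -1.29 ± 0.12 and -1.0 ± 0.18 on the same scale. Of the genes that rose, lratb.2 belongs to the family that esterifies retinol for storage, and went from 10 and 4 counts to 53 and 59. Its log2 fold change was 2.47 ± 0.37, with 3.18 without uninjured pool 1 and 2.07 without uninjured pool 2. The gene LRAT had 0 counts in all 4 libraries, where a floor of 3 counts corresponds to 0.0562 to 0.0881 CPM and covers counting error only. Gene IDs named RPE65, after the retinoid isomerase of the eye, rose by 2.47 ± 0.16 (ENSDARG00000054420) and 2.59 ± 0.17 (ENSDARG00000094752). These reached 72.7 ± 2.92 and 50.5 ± 1.97 CPM (SD, n = 2), but their counts ran in parallel in all 4 libraries, and reads shared between such copies would make their separate values uncertain. A further RPE65 gene ID (ENSDARG00000007480), named after its values were seen, had 6 to 29 counts, overlapping pools and a log2 fold change of 0.42 ± 0.49 that did not pass (adjusted p = 0.491).

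Among carriers, 5 of 13 were higher and 3 were lower. CRABP2 (ENSDARG00000030449), a binding protein that carries retinoic acid inside cells, had 4648 and 3618 counts in the regenerating pools against 459 and 498 in the uninjured pools, with means of 80.4 and 13.3 CPM (log2 fold change 2.59 ± 0.19 SE; edgeR quasi-likelihood, adjusted p = 1.67e-05). Its copy ENSDARG00000073978, named after its values were seen, had means of 41.7 and 42.6 CPM and a log2 fold change of -0.03 ± 0.13, which did not pass. Of the CRABP1 gene IDs, named after their values were seen, ENSDARG00000035904 was lower (log2 fold change -0.85 ± 0.17 SE; edgeR quasi-likelihood, adjusted p = 0.00282). The CRABP1 copy ENSDARG00000045926 had a log2 fold change of 0.06 ± 0.27 that did not pass. The fatty acid binding protein gene FABP7 (ENSDARG00000034650) rose from 11 and 4 to 82 and 118 counts. Its log2 fold change was 3.20 ± 0.38, with 4.01 without uninjured pool 1 and 2.76 without uninjured pool 2. Its uninjured level, a mean of 0.203 CPM, was very low. The FABP7 copy ENSDARG00000007697, named after its values were seen, had means of 33.1 CPM in regenerating and 42.5 CPM in uninjured fins. The log2 fold change of that copy was -0.36 ± 0.16 and did not pass (edgeR quasi-likelihood, adjusted p = 0.0777). The retinol-binding protein gene rbp7a went from 22.2 and 11.7 to 3.32 and 5.60 CPM (-1.93 ± 0.33; adjusted p = 0.00120).

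Of 15 tested genes of other oxidoreductases, 2 were higher and 6 lower. Of the 6, only RDH8 kept its call in every fit that left out 1 library. The lower genes DHRS9, rdh12l and CYP27C1, named after their values were seen, had log2 fold changes of -0.42 ± 0.12, -0.59 ± 0.16 and -0.44 ± 0.16. The retinol dehydrogenase genes RDH8, RDH14 (ENSDARG00000039299) and rdh5 had log2 fold changes of -0.92 ± 0.17, -0.64 ± 0.17 and -1.70 ± 0.44. The RDH14 copy ENSDARG00000002467, named after its values were seen, had overlapping pools and a log2 fold change of -0.15 ± 0.15 that did not pass. The call of rdh5, with 5 to 18 counts per library, was lost without regenerating pool 1 (edgeR quasi-likelihood, adjusted p = 0.0703), without uninjured pool 1 (adjusted p = 0.0871) and with DESeq2 (adjusted p = 0.108). That of RDH14 was lost without regenerating pool 2 (adjusted p = 0.0858) and with scaling by total counts alone (adjusted p = 0.0679). The alcohol dehydrogenase gene adh8b rose by 0.96 ± 0.12, and dhrs4, a dehydrogenase/reductase gene named after its values were seen, by 1.12 ± 0.16. ALDH1A3, another retinaldehyde dehydrogenase gene, named after its values were seen, had means of 29.9 CPM in regenerating and 23.5 CPM in uninjured fins, and its log2 fold change of 0.35 ± 0.15 did not pass (adjusted p = 0.0828).

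Of 20 receptor and coregulator genes, 14 did not pass, 2 were higher and 4 were lower. The receptor gene raraa was lower, with 90 and 122 counts in the regenerating pools against 158 and 143 in the uninjured pools and means of 2.04 and 4.17 CPM (log2 fold change -1.03 ± 0.19 SE; edgeR quasi-likelihood, adjusted p = 0.00195). Its paralog rarab, named after its values were seen, had means of 16.1 CPM in regenerating and 19.8 CPM in uninjured fins. The log2 fold change of rarab was -0.3 ± 0.14 and did not pass (edgeR quasi-likelihood, adjusted p = 0.0908). The coactivator gene NCOA1 and the receptor gene rxrgb had log2 fold changes of -0.72 ± 0.13 and -0.60 ± 0.15, and the call of rxrgb was lost with scaling by total counts alone (adjusted p = 0.0811). The rxrgb paralog rxrga, named after its values were seen, had a log2 fold change of 0.19 ± 0.16 that did not pass. RXRA (ENSDARG00000057737), a partner receptor, rose by 1.17 ± 0.17. RARG (ENSDARG00000034117), the other receptor that rose, was named after its values were seen and went from 115 ± 7.43 to 203 ± 2.89 CPM (SD, n = 2). The copies RXRA (ENSDARG00000035127) and RARG (ENSDARG00000054003), named after their values were seen, had log2 fold changes of -0.17 ± 0.13 and 0.27 ± 0.12. Neither passed.

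Genes known as retinoic acid targets were likewise split, with 4 of 11 tested higher and 3 lower. NR2F1 (ENSDARG00000052695), an orphan nuclear receptor gene, stood at 22.4 and 20.9 CPM in regenerating and 5.88 and 5.84 CPM in uninjured pools (log2 fold change 1.89 ± 0.13 SE; edgeR quasi-likelihood, adjusted p = 1.52e-05). NR6A1 and the transglutaminase gene TGM2 (ENSDARG00000074094) rose by 0.73 ± 0.18 and 0.79 ± 0.20, and both calls were lost without regenerating pool 2 (adjusted p = 0.0522 and 0.0785). The homeobox gene meis3 was lower, with a log2 fold change of -1.36 ± 0.24. It had few counts, 41 and 35 in the regenerating pools against 66 and 70 in the uninjured pools. The other lower targets, meis1a and MEIS1, named after their values were seen, had log2 fold changes of -0.9 ± 0.17 and -0.53 ± 0.12. The call of MEIS1 was lost in at least 1 fit that left out 1 library. The copies NR2F1 (ENSDARG00000017168) and TGM2 (ENSDARG00000070157), named after their values were seen, had log2 fold changes of 0.41 ± 0.28 and -0.36 ± 0.27. Neither passed. The other 7 target gene IDs, most of them anterior Hox genes, had at most 9 counts in any library and were not tested.

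**Figure D5:**
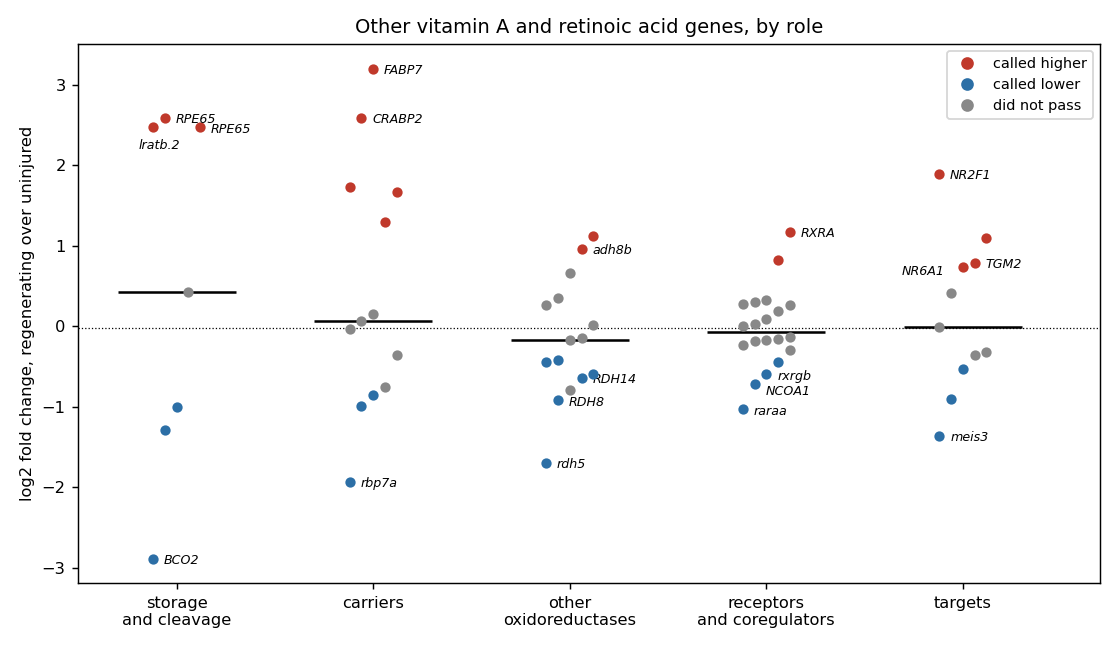
Log2 fold change, regenerating over uninjured fins, of 66 other tested vitamin A and retinoic acid gene IDs in 5 roles, 1 point per gene ID, coloured by call, with the genes named by rule in the text labelled. Black lines are medians by role, from -0.17 for other oxidoreductases to 0.42 for storage and cleavage, and the dotted line is the median of all genes tested.

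Genes whose pattern over the 4 libraries was most like that of ALDH1A2 were found by the Euclidean distance of mean-centred log2 CPM, among 10519 named genes with a mean of at least 5 CPM. The nearest were tmeff1b, SMC4 and FSTL1, at distances of 0.0639, 0.142 and 0.147. SMC4 encodes a condensin subunit used in cell division and FSTL1 a secreted glycoprotein. The genes tmeff1b, SMC4 and FSTL1 had log2 fold changes of 2.93, 3.02 and 2.88. For STRA6 the nearest were abch1, SLC16A12 and hsh2d, at distances of 0.439, 0.439 and 0.550, and these too were higher in uninjured pool 2 than in uninjured pool 1, with 24.1 against 13.7 CPM for abch1. With 2 groups of 2 pools this likeness describes little more than the size of the change and the order of the pools.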

How the data were processed

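Single-end RNA-seq reads of 50 bases were made from total RNA of 4 fin pools, per the labels' protocols. The authors' deposited tables hold raw read counts per Ensembl gene, taken on TopHat's accepted alignments per the file headers. CASAVA, TopHat and edgeR, and genome build Zv9, are listed per the submitters' processing notes. No source used here gives their versions, the counting program, the annotation or the strand setting, so reads of near-identical or overlapping genes cannot be separated. Coordinates and sequences were not used here.

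Columns were mapped to samples by name, and a table of Ensembl IDs gave symbols to 64.0% of gene IDs. Genes were filtered with filterByExpr (minimum count 10, minimum total 15), libraries were scaled by TMM (factors 0.870 to 1.11), and edgeR's quasi-likelihood test (non-legacy glmQLFit, with group as the only term) compared the groups across all genes. Standard errors are the log2 fold change over the root of the quasi-likelihood F. Fits used edgeR 4.0.16, DESeq2 1.42.0 and limma 3.58.1 in R 4.3.3; tables, exact tests and plots used scipy 1.17.1, pandas 2.3.3, matplotlib 3.10.9 and numpy 2.4.6 in Python 3.11.15. The fit was also run on simulated counts, in which a small set of genes changed by known folds and the others did not. That run cannot show how the fit does where most genes are called, as in these data.

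The members and lists were chosen with earlier results of these data known. The wider list held 94 symbols, of which 81 matched, and 7 marker lists held 65, of which 54 matched, exactly or to a capitalised symbol without the paralog suffix. Named were all members and, in each of the 5 roles of the wider list, the called genes of lowest adjusted p, 3 in the direction with more calls and 1 in the other, and the 3 nearest genes to each of ALDH1A2 and STRA6; 1 gene of that rule is not reported here, and others are said to be named after their values were seen. The count ratios between the copies of DHRS3 and between CYP26B1 and CYP26A1 were also chosen after values were seen. Alternatives changed the scaling, the filter, the test, the replicate block, the name matching and each library in turn.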

Additional observations from a re-analysis of the deposited data

How the results depend on the processing

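Across 106 refits of the 9 members, 101 kept the direction and the side of the threshold; the 5 others are given beside their genes, among them the sign of RDH10 (ENSDARG00000058730), which turned to -0.09 without uninjured replicate 1 (range with 1 library left out -0.09 to 0.34) in a gene that did not pass in either fit. Of 231 refits of the 20 wider genes of the naming rule, 223 kept both and 8 lost the call. With the filter at 10 CPM, 4384 genes were higher and 4461 lower in place of 7551 and 7693, because 12466 genes were tested. Of the wider genes, 9 were then higher and 13 lower in place of 16 and 19. With exact names only, 5 wider genes were higher and 13 lower, since copies without a paralog suffix were left out. With scaling by total counts alone 11 wider genes were lower in place of 19, and over all genes the split was 8939 higher to 5524 lower. Leaving out 1 library at a time gave 5965 to 7438 genes higher and 5891 to 7177 lower, 2 to 3 members higher and 3 lower, and 13 to 16 wider genes higher and 12 to 18 lower; where an arm kept 1 pool, it was assumed to vary like the other group. The log2 ratio of Cyp26 to ALDH1A2 counts differed by -3.04 to -2.93 in those settings, and by -3.69, -2.53 and -4.22 with CYP26A1, CYP26B1 and CYP26C1 alone and -1.14 with RDH10 added, in place of -2.98; the genes entering the ratio differ by construction.

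The groups share replicate numbers, but nothing in the labels ties equal numbers together, and their deviations correlated at -0.0314 across genes. With a replicate block 7472 genes were higher and 7624 lower, 3 members were higher and 3 lower, and 16 wider genes were higher and 18 lower. With 2 pools a group, no exact test over samples can pass. The few counts of lratb.2, FABP7 (ENSDARG00000034650) and rdh5 limit how precisely the sizes of their changes are known.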
